A study of Mus musculus with 8 samples.

Results

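The classical MHC class I molecules and the machinery that loads them with peptide were followed through 10 genes in splenic dendritic cells. The genes were H2-K1, H2-D1, B2m, Tap1, Tap2, Tapbp, Calr, Pdia3, Canx and Erap1. The cells came from mice with and without mature T and B cells. Members were all probe sets, the groups of short oligonucleotides by which the array reads a transcript, whose platform annotation gave 1 of these symbols and no other. This selected all 10 genes among the 18193 with a probe set of their own, and 32 of the 45037 probe sets that remained after array controls were left out. Of the 32, 23 reached a log2 value of 5 on at least 2 of the 8 arrays and were tested, and 9 did not. The members that passed therefore say nothing about the 9 others.

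CD8α- and CD8α+ dendritic cells had been sorted from the spleens of untreated female C57BL/6 mice, either wild type (WT) or RAG2-/-, which gave 4 groups of 2 arrays each. The sample labels gave an age of 10 weeks for all mice. RAG2-/- mice cannot rearrange antigen receptor genes and so lack mature T and B cells in every tissue, not only around dendritic cells. The labels did not say whether the 2 arrays of a group came from separate mice, so p-values measure only the spread between these arrays, which may be technical.

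A class I molecule consists of a polymorphic heavy chain, encoded in the mouse by H2-K1 and H2-D1, the invariant light chain beta-2 microglobulin, encoded by B2m, and a short peptide. Peptides made by the proteasome are pumped into the endoplasmic reticulum by the TAP transporter, a dimer of the Tap1 and Tap2 products, and are trimmed there by the aminopeptidase Erap1. Calnexin (Canx) helps the new heavy chain to fold, and calreticulin (Calr), the thiol oxidoreductase ERp57 (Pdia3) and tapasin (Tapbp) hold the empty molecule next to TAP until a fitting peptide binds. CD8α+ dendritic cells are known for presenting antigen taken up from other cells on class I molecules, the process called cross-presentation.

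The values were log2 expression values, and a difference of 1 is a doubling. On each array the lowest value was shared by 18186 to 18863 probe sets in the RAG2-/- samples and by 1 probe set in the WT samples. The genotypes thus differed in how low signals had been processed, and genotype and processing cannot be told apart in any RAG2-/- versus WT difference. All 6 dendritic cell markers were at or above 5 on every array, and their summed level was 16.08 to 16.27 in WT and 16.55 to 16.95 in RAG2-/- samples. The summed level of the 7 CD8α+ dendritic cell markers was 15.89 to 16.26 in the CD8α+ samples against 12.69 to 14.48 in the CD8α- samples. The Rag2 probe set was below 5 on all arrays (2.49 to 3.63) and so does not check the genotype labels. Markers of other cells moved with the groups. B cell markers (7 listed, 5 of them at or above 5 on each WT array and 1 or 2 on each RAG2-/- array, with Cd79a and Pax5 at 2.08 to 2.47 throughout) summed to 10.93 to 12.03 in WT and 8.06 to 8.69 in RAG2-/- samples. NK cell markers (5 listed, 1 or 2 at or above 5 in WT and 2 or 3 in RAG2-/- samples, Ncr1 at 2.23 to 4.55) summed to 7.57 to 7.87 and 9.27 to 11.70. Macrophage markers (7 listed) summed to 12.05 to 12.71 in WT and 12.65 to 13.88 in RAG2-/- samples, which overlap, with Marco at 2.23 to 2.82 throughout. They did not all agree in CD8α+ cells. Vcam1 was lower in RAG2-/- cells, at 11.58 and 11.35 against 11.64 and 12.36 in WT. Cd68 was higher there, at 11.73 and 11.46 against 9.34 and 10.16. So were Adgre1 (9.07 and 9.13 against 7.28 and 7.01), Spic (8.45 and 7.83 against 7.47 and 7.17) and Hmox1 (9.38 and 7.47 against 5.56 and 3.89). Mertk overlapped (4.74 and 2.82 against 3.02 and 2.66). In RAG2-/- CD8α- replicate 2, 7 of 8 neutrophil markers were at or above 5 and summed to 13.03, and in RAG2-/- CD8α+ replicate 1 it was 6 of 8 with a sum of 11.60. On the other 6 arrays at most 1 reached 5 and the sums were 5.83 to 6.63. Erythroid markers (3 listed here) summed to 9.14 in RAG2-/- CD8α- replicate 2 and 8.87 in RAG2-/- CD8α+ replicate 2 through Slc4a1, against 5.23 to 6.40 on the other arrays. T cell markers (4 listed here) summed to 4.96 and 5.90 in RAG2-/- CD8α+ cells against 6.74 to 7.99 elsewhere, through Cd5, with Cd3e and Cd3g below 5 on every array. The part of these cells in the results below was not tested, and in bulk samples fewer cells of a type and less RNA per cell cannot be told apart.

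The genes of the complex followed different patterns. Between the subsets, Tap2 was higher in CD8α+ cells of both genotypes, Tap1 in RAG2-/- cells, and Pdia3 and 1 Canx probe set in WT cells, whereas no heavy chain or B2m probe set passed the test. Between the genotypes 7 of 9 tested H2-K1 and H2-D1 probe sets were higher in RAG2-/- cells of both subsets and 1 was lower. Over all probe sets tested, 19.1% were higher by this test in CD8α- and 16.7% in CD8α+ cells. B2m passed the test in no comparison. A difference was called where limma's adjusted p, over all 16939 probe sets tested, was under 0.05.

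In WT cells 3 of the 23 tested members were called between CD8α+ and CD8α- cells, against 12.7% of all probe sets tested, so the share of called members (13.0%) was near the background. All 3 were higher in CD8α+ cells, where the background share was 6.98% called higher and 5.74% lower. In RAG2-/- cells 2 of 23 were called (8.70%), both higher, against 16.2% of all probe sets in either direction, 7.69% higher and 8.47% lower. Between RAG2-/- and WT, 14 of 23 members were called in CD8α- cells (60.9%), 12 higher and 2 lower, against 35.7% of all probe sets. Of all probe sets 19.1% were called higher and 16.6% lower. In CD8α+ cells 10 of 23 were called (43.5%), 8 higher and 2 lower, against a background of 33.9% (16.7% higher, 17.3% lower). Several of these probe sets are annotated to the same gene, so they are not independent of each other. By gene, 7 of 10 genes had a called probe set in CD8α- cells and 4 of 10 in CD8α+ cells, beside 48.8% and 46.4% of all 8763 genes with a tested probe set. Between the subsets it was 3 of 10 in WT and 2 of 10 in RAG2-/- cells, beside 17.4% and 21.4%. With a single probe set a gene, the one with the highest mean, 4 of 10 genes were called in each subset, beside 37.2% and 33.8% of all genes, so by this count the share of called members was near the background. The median RAG2-/- less WT difference of the tested members was 0.81 in CD8α- and 0.51 in CD8α+ cells, beside 0.08 and -0.02 over all probe sets tested. With 1 probe set a gene it was 0.50 and 0.34, beside 0.14 and 0.09 over all genes. The median CD8α+ less CD8α- difference was 0.08 in WT and 0.15 in RAG2-/- cells, beside 0.02 and -0.01. These subset medians had no stable size. With 1 probe set a gene they were 0.55 and 0.28, beside 0.01 and 0.02. Without WT CD8α- replicate 2 the WT median was -0.07, and without any 1 of the other WT arrays it was 0.31 to 0.35. The RAG2-/- median was -0.05 when replicate 1 of the CD8α- group was left out and 0.37 when replicate 2 was. It fell to 0.01 when replicate 2 of the CD8α+ group was left out.

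**Figure D1:**
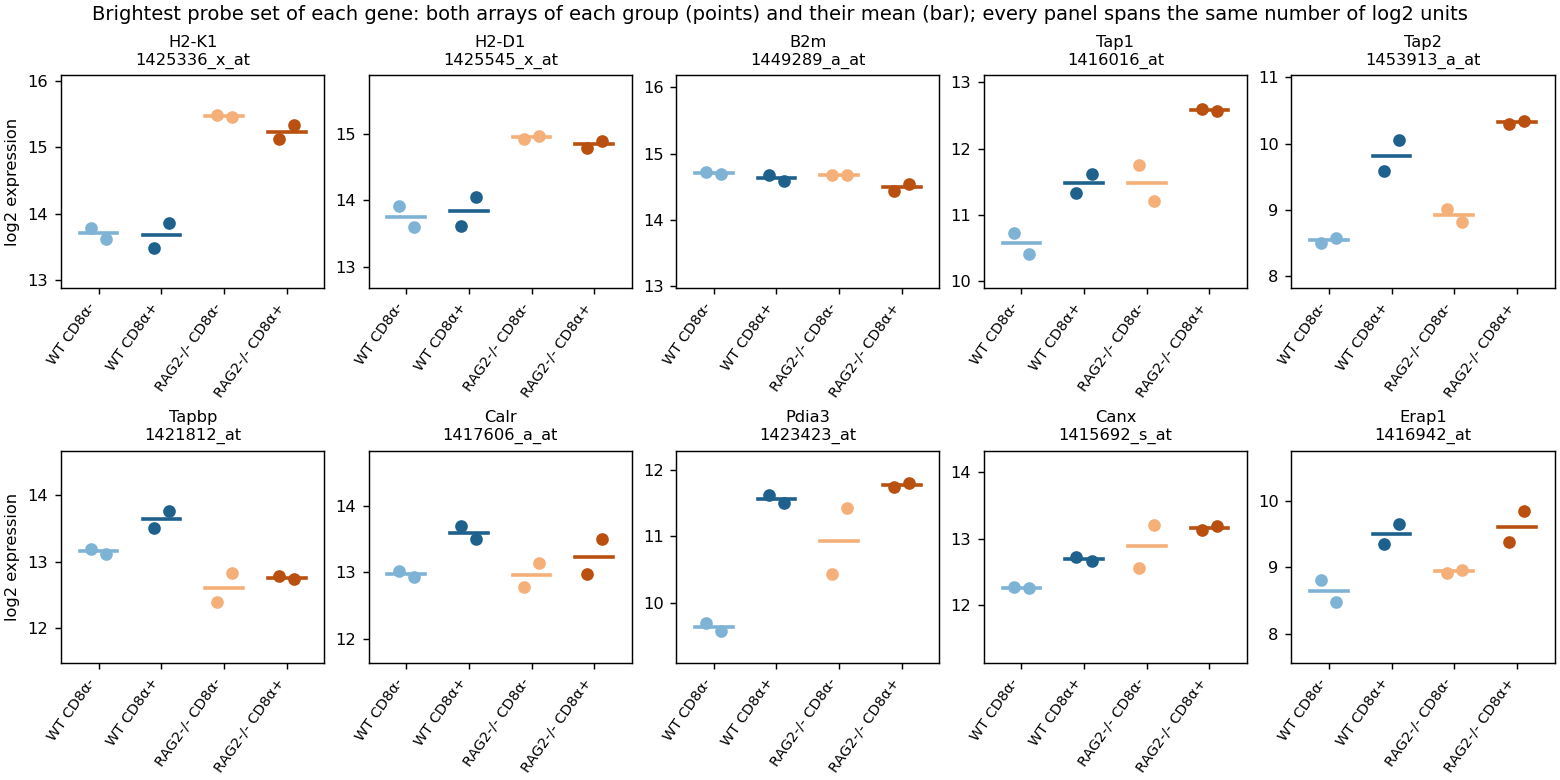
Log2 expression of the probe set with the highest mean for each of the 10 genes, in WT and RAG2-/- CD8α- and CD8α+ dendritic cells. Points are the 2 arrays of a group, bars are their means, and every panel spans the same number of log2 units but starts at its own level. H2-K1 and H2-D1 separate the genotypes, Tap2 separates the subsets, Tap1 moves with both, and the 8 B2m points lie between 14.43 and 14.72.

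The heavy chain genes lie on chromosome 17, H2-K1 at chr17:33996012-34000619 on the minus strand and H2-D1 at chr17:35263094-35267497 on the plus strand (GRCm38.p6). Tapbp (chr17:33919478-33929290), Tap1 (chr17:34187556-34197225) and Tap2 (chr17:34204479-34216321) lie on the same chromosome, and the immunoproteasome gene Psmb9, on the minus strand, and Tap1, on the plus strand, lie head to head with 225 bases between them. The region before the start of both heavy chain genes holds a match to the NF-kB (kB) consensus in a nearly identical setting. The stretch is shown for that likeness, and the transcripts that the probe sets read were not compared. The sequences are RefSeq's, 5′ to 3′ on the gene's strand, with the 11 bases that match the kB consensus on both strands in capitals:

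H2-K1, chr17:34000428-34000478, minus strand: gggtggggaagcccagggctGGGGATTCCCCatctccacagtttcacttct

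H2-D1, chr17:35262903-35262953, plus strand: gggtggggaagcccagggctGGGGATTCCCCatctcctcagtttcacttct

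In these 51 bases 50 are equal, against 166 of 190 (87.4%) over the whole stretch where the windows before both starts overlap without gaps. The kB run lies 111 to 101 bases before the H2-K1 start and 171 to 161 bases before the H2-D1 start. H2-K1 has a second annotated start, and another annotated transcript of the gene reaches beyond the start used here. Motifs were searched on both strands in the 250 bases before each start, in the 9 genes with an entry in the promoter table. Tap2 has no entry. The kB consensus was found for H2-K1, H2-D1 and B2m and in 3.90% of all 32851 windows. The interferon-stimulated response element, searched as GAAA, any 2 bases and GAAA, was found for B2m and in 2.98% of windows. The cyclic AMP response element TGACGTCA was found for none of the 9 genes and in 1.55% of windows, and CCAAT for 8 of 9 genes and in 33.8% of windows. A match describes letters only and is not evidence of a bound factor. A variant that differs from the letters searched was not counted, so no match does not mean that no such element is there.

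All 4 H2-K1 probe sets were tested, and all carry the suffix x_at, by which the array's design marks probes that may also bind other, similar transcripts. Probe set 1425336_x_at read 13.79 and 13.62 in WT CD8α- cells, 13.48 and 13.87 in WT CD8α+ cells, 15.49 and 15.46 in RAG2-/- CD8α- cells and 15.12 and 15.34 in RAG2-/- CD8α+ cells. Both RAG2-/- groups lay above every WT array, and the 2 WT groups overlapped. The RAG2-/- less WT difference was 1.77 (SE 0.20, 3.40-fold, adjusted p = 0.00210) in CD8α- cells and 1.56 (SE 0.20, 2.94-fold, adjusted p = 0.00321) in CD8α+ cells.

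The other H2-K1 probe sets gave the same direction with smaller differences. For 1451931_x_at the values were 13.47 and 13.15 in WT CD8α-, 13.25 and 13.47 in WT CD8α+, 14.52 and 14.46 in RAG2-/- CD8α- and 14.34 and 14.52 in RAG2-/- CD8α+ cells. Genotypes did not overlap in either subset, with differences of 1.18 (adjusted p = 0.00613) and 1.07 (adjusted p = 0.00897). 1427746_x_at was 10.32 to 10.95 over the 4 WT arrays and 11.52 to 11.73 over the 4 RAG2-/- arrays, and 1450534_x_at was 8.74 to 9.26 and 9.63 to 10.28. Both were called in both subsets, by 0.84 to 0.95, and 1427746_x_at read the identical value of 11.52 on both RAG2-/- CD8α+ arrays. Between the subsets no H2-K1 probe set was called: the differences ran from -0.32 to 0.05 in WT and from -0.42 to -0.06 in RAG2-/- cells.

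H2-D1 had 9 probe sets, of which 5 were tested and 4 stayed at or below 4.59 on every array. Probe set 1425545_x_at read 13.91 and 13.59 in WT CD8α-, 13.61 and 14.05 in WT CD8α+, 14.93 and 14.97 in RAG2-/- CD8α- and 14.79 and 14.90 in RAG2-/- CD8α+ cells. It was higher in RAG2-/- cells by 1.20 (SE 0.22, 2.30-fold, adjusted p = 0.00831) in the CD8α- and by 1.02 (SE 0.22, 2.02-fold, adjusted p = 0.0151) in the CD8α+ subset. 1451784_x_at (13.08 to 13.63 in WT, 14.72 to 14.86 in RAG2-/- samples) was higher by 1.50 and 1.37. 1451683_x_at (11.24 to 11.75 and 12.54 to 12.88) was higher by 1.23 and 1.25. For these 3 probe sets no WT array reached the lowest RAG2-/- array.

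A single tested H2-D1 probe set, 1426324_at, carries no mark of cross-binding. It read 11.33 and 10.79 in WT CD8α-, 10.82 and 10.85 in WT CD8α+, 11.63 and 11.63 in RAG2-/- CD8α- and 11.45 and 11.37 in RAG2-/- CD8α+ cells. The RAG2-/- arrays were again all above the WT arrays, but the differences of 0.57 (SE 0.22, adjusted p = 0.0839) and 0.58 (SE 0.22, adjusted p = 0.0804) were not called.

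The fifth H2-D1 probe set, 1450170_x_at, went the other way. It read 8.98 and 8.72 in WT CD8α-, 8.91 and 8.78 in WT CD8α+, 6.69 and 7.20 in RAG2-/- CD8α- and 6.69 and 6.97 in RAG2-/- CD8α+ cells. In RAG2-/- cells it fell by 1.90 (SE 0.24, adjusted p = 0.00256) in the CD8α- and by 2.01 (SE 0.24, adjusted p = 0.00236) in the CD8α+ subset. Probe sets annotated to H2-D1 therefore disagreed in sign with both directions called, and which transcript each of them reads cannot be settled from these values. The value 6.69 of 1450170_x_at was identical, to every digit given, in replicate 1 of both RAG2-/- groups. The part of processing in the fall of 1450170_x_at was not tested. The other 4 probe sets of the gene were below the threshold for testing. Of these, 1425614_x_at (4.27 to 4.51 in WT, 3.28 to 3.31 in RAG2-/- samples) and 1452544_x_at (3.89 to 4.59 and 2.60 to 2.90) read lower in RAG2-/- samples, 1451934_at (1.93 to 1.95 and 2.23) read higher, and 1427651_x_at (3.20 to 3.70 and 2.42 to 3.46) overlapped. All 4 lie in the range where the genotypes differed in processing. The platform names 1 tested probe set, 1424948_x_at, for H2-K1 and H2-D1 together. Its means were 10.88 and 10.95 in WT CD8α- and CD8α+ cells and 11.91 and 11.80 in RAG2-/- cells, with every RAG2-/- array above every WT array. It was higher in RAG2-/- cells by 1.03 (adjusted p = 0.00925) in CD8α- and by 0.85 (adjusted p = 0.0182) in CD8α+ cells.

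For the heavy chains, the call for H2-K1 1425336_x_at and the opposite call for H2-D1 1450170_x_at held in every alternative run in both subsets, 19 and 18 of them. In CD8α- cells so did the calls for H2-K1 1451931_x_at and H2-D1 1451784_x_at and 1451683_x_at. Each other heavy chain call was lost in at least 1 alternative, and in CD8α+ cells without WT CD8α+ replicate 1 only the first 2 were left of 10 called members.

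B2m, the shared light chain, did not pass the test in any comparison. Probe set 1449289_a_at read 14.72 and 14.69 in WT CD8α-, 14.68 and 14.59 in WT CD8α+, 14.68 and 14.67 in RAG2-/- CD8α- and 14.43 and 14.55 in RAG2-/- CD8α+ cells. 1452428_a_at read 14.47 and 14.29, 14.29 and 14.39, 14.62 and 14.47, and 14.16 and 14.17 in the same order of groups. The RAG2-/- less WT difference of 1449289_a_at was -0.03 in CD8α- cells (95% interval -0.41 to 0.36) and -0.15 in CD8α+ cells (-0.53 to 0.24). For 1452428_a_at it was 0.16 (-0.25 to 0.57) and -0.17 (-0.58 to 0.24). These intervals do not reach the difference of 0.84, the smallest called for any H2-K1 probe set. In RAG2-/- cells the CD8α+ less CD8α- differences were -0.19 and -0.38 with no overlap, and neither was called (adjusted p = 0.482 and 0.191). The 250 bases before the B2m start (chr2:122147437-122147686, plus strand) are shown because they hold an exact match to the interferon element as searched and a kB match. These are in capitals in that order, 139 to 130 and 126 to 117 bases before the start:

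B2m: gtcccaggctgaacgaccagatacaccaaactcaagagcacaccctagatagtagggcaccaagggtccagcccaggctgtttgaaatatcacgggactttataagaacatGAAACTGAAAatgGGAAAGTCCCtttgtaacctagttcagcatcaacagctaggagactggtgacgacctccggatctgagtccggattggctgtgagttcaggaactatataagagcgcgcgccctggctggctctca

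Tap2 was the member called between the subsets in both genotypes. Tap2, by its single probe set 1453913_a_at, read 8.51 and 8.58 in WT CD8α-, 9.58 and 10.06 in WT CD8α+, 9.02 and 8.82 in RAG2-/- CD8α- and 10.30 and 10.35 in RAG2-/- CD8α+ cells. Every CD8α+ array was above every CD8α- array, and within each subset the RAG2-/- arrays were above the WT arrays. Tap2 was higher in CD8α+ cells by 1.28 (SE 0.21, 2.42-fold, adjusted p = 0.0110) in WT and by 1.41 (SE 0.21, 2.65-fold, adjusted p = 0.00666) in RAG2-/- mice. The genotype differences of 0.38 (adjusted p = 0.208) and 0.51 (adjusted p = 0.108) were not called.

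Tap1 had 4 probe sets, of which 1420274_at, 1448177_at and 1449803_x_at stayed at 2.19 to 2.63 and only 1416016_at was tested. It read 10.73 and 10.41 in WT CD8α-, 11.32 and 11.62 in WT CD8α+, 11.74 and 11.21 in RAG2-/- CD8α- and 12.59 and 12.56 in RAG2-/- CD8α+ cells. The lowest group was WT CD8α-, the highest RAG2-/- CD8α+, and the 2 groups between them overlapped. The subset difference was 1.10 in RAG2-/- cells (SE 0.25, 2.14-fold, adjusted p = 0.0277) and 0.90 in WT cells, where it was not called (SE 0.25, adjusted p = 0.0616). Unlike Tap2, Tap1 was called higher in RAG2-/- cells in both subsets, by 0.91 (adjusted p = 0.0296) in CD8α- and by 1.11 (adjusted p = 0.0165) in CD8α+ cells. The CD8α- call was lost when each array was centred on its median (0.80, adjusted p = 0.0501). Whether the genotype difference of Tap1 exceeded that of Tap2 was not tested.

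Tapasin, which bridges TAP and the empty class I molecule, had 1 tested probe set, 1421812_at, with 13.19 and 13.12 in WT CD8α-, 13.51 and 13.76 in WT CD8α+, 12.39 and 12.84 in RAG2-/- CD8α- and 12.78 and 12.74 in RAG2-/- CD8α+ cells. In contrast to Tap1 and the heavy chains, all 4 RAG2-/- arrays lay below all 4 WT arrays. The RAG2-/- less WT difference was -0.88 (SE 0.21, adjusted p = 0.0218) in CD8α+ cells, a called decrease, and -0.55 (SE 0.21, adjusted p = 0.0881) in CD8α- cells, which was not called. The subset differences of 0.48 in WT (adjusted p = 0.220) and 0.15 in RAG2-/- cells (adjusted p = 0.681) were not called. The called decrease was lost without any 1 of the 4 CD8α+ arrays (adjusted p up to 0.0951). The second probe set of the gene, 1450378_at, stayed at 2.20 to 2.59.

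**Figure D2:**
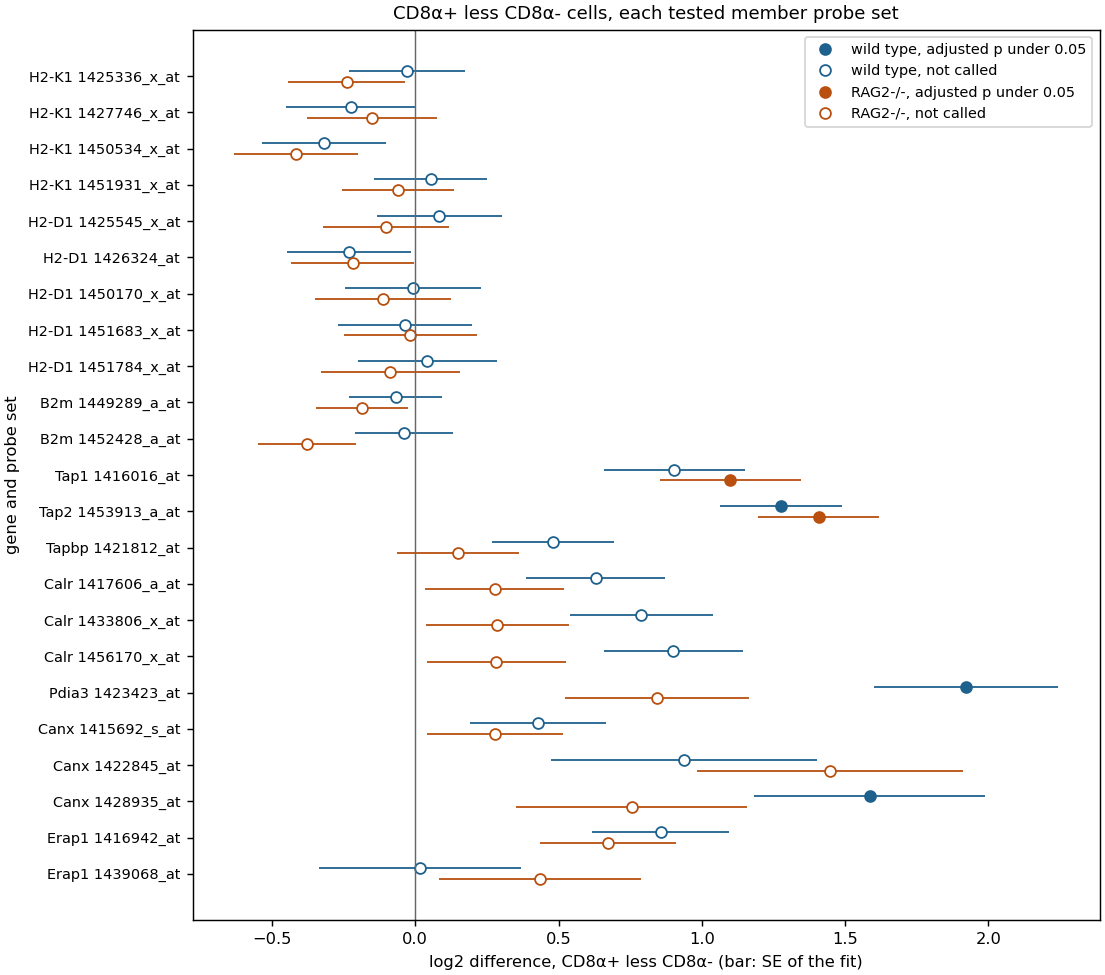
CD8α+ less CD8α- log2 difference of each tested probe set in WT and RAG2-/- cells, with bars for the SE of the fit. Filled points were called at an adjusted p under 0.05. Heavy chain and B2m points lie between -0.42 and 0.08 in both genotypes, and the called points are Tap2, Pdia3 and Canx 1428935_at in WT and Tap1 and Tap2 in RAG2-/- cells.

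Calreticulin, calnexin and ERp57 act on newly made glycoproteins in general, class I heavy chains among them. Of the Pdia3 probe sets, 1445330_at stayed at 2.23 to 2.58 and was not tested. Pdia3, by 1423423_at, read 9.68 and 9.58 in WT CD8α-, 11.61 and 11.49 in WT CD8α+, 10.42 and 11.43 in RAG2-/- CD8α- and 11.74 and 11.80 in RAG2-/- CD8α+ cells. The WT CD8α- group was lowest, and the 2 RAG2-/- CD8α- arrays were a full log2 unit apart. In WT cells Pdia3 was higher in the CD8α+ subset by 1.92 (SE 0.32, 3.79-fold, adjusted p = 0.0112), the largest subset difference of any member in WT. The call was lost without any 1 of the 4 WT arrays (1.86 to 1.98, adjusted p up to 0.0813). In RAG2-/- cells the difference was 0.84 (SE 0.32, adjusted p = 0.129) and was not called. It was 0.34 (adjusted p = 0.363) without RAG2-/- CD8α- replicate 1, and was called without replicate 2 of that group (1.35, adjusted p = 0.0125) and without both RAG2-/- arrays that carried neutrophil transcripts (1.38, adjusted p = 0.0358). In the last of these each RAG2-/- group holds 1 array, which is assumed to vary like the WT arrays. RAG2-/- CD8α- replicate 2, the array with the higher Pdia3 value, was one of them and was also above replicate 1 in the CD8α+ subset genes Irf8 (13.25 against 11.50) and Tlr3 (9.90 against 8.77). The part of this in the Pdia3 value was not tested. Between the genotypes Pdia3 was called higher in RAG2-/- CD8α- cells (1.30, adjusted p = 0.0225) and not in CD8α+ cells (0.22, adjusted p = 0.627). Without RAG2-/- CD8α- replicate 2 the difference was 0.79 and was still called.

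The 3 Canx probe sets agreed in the direction of the subset difference but not in its size. 1415692_s_at read 12.27 and 12.25 in WT CD8α-, 12.72 and 12.66 in WT CD8α+, 12.56 and 13.21 in RAG2-/- CD8α- and 13.13 and 13.19 in RAG2-/- CD8α+ cells. 1428935_at read 5.92 and 7.18, 8.13 and 8.14, 8.17 and 8.68, and 9.21 and 9.16 in the same order. Only 1428935_at was called between the WT subsets, at 1.59 (SE 0.40, adjusted p = 0.0497), close to the threshold, with WT CD8α- replicates more than a log2 unit apart. The difference was 0.96 without WT CD8α- replicate 1 and was called in 8 of 18 alternatives. 1422845_at read 7.17 and 6.82, 7.68 and 8.19, 5.83 and 7.17, and 7.66 and 8.24, with subset differences of 0.94 (adjusted p = 0.274) and 1.45 (adjusted p = 0.0825). Between the genotypes in CD8α- cells the probe sets split: 1428935_at was called higher in RAG2-/- cells by 1.87 (adjusted p = 0.0141, and 1.25 without WT CD8α- replicate 1), while 1415692_s_at gave 0.62 (adjusted p = 0.0845) and 1422845_at gave -0.50 (adjusted p = 0.434).

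Calr showed a similar split between probe sets. 1417606_a_at read 13.02 and 12.92 in WT CD8α-, 13.70 and 13.50 in WT CD8α+, 12.77 and 13.15 in RAG2-/- CD8α- and 12.97 and 13.50 in RAG2-/- CD8α+ cells. 1456170_x_at read 10.88 and 10.82, 11.77 and 11.73, 11.80 and 12.17, and 11.99 and 12.55 in the same order. In CD8α- cells the first did not separate the genotypes (-0.01, adjusted p = 0.978), whereas 1456170_x_at was higher in RAG2-/- cells by 1.14 (adjusted p = 0.0137). The third, 1433806_x_at (10.39 and 10.16 in WT CD8α-, 10.87 and 11.31 in RAG2-/- CD8α- cells), was higher by 0.81 (adjusted p = 0.0444). Both called probe sets carry the mark of possible cross-binding, and the call for 1433806_x_at held in 7 of 18 alternatives and was lost when arrays were centred or quantile-normalized. Between the WT subsets all 3 probe sets were higher in CD8α+ cells without overlap, by 0.63, 0.79 and 0.90, and none was called (adjusted p = 0.165, 0.0973 and 0.0603).

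The windows before the Calr and Canx starts each hold the endoplasmic reticulum stress element, searched as CCAAT, any 9 bases and CCACG, which was found in 0.113% of all windows. They are shown because these chaperones are encoded far apart, on chromosomes 8 and 11, and share this element, which is in capitals. In Calr (chr8:84846932-84847181, minus strand) it reads on the opposite strand, 162 to 144 bases before the start, and in Canx (chr11:50325674-50325923, minus strand) it reads forward, 145 to 127 bases before the start:

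Calr: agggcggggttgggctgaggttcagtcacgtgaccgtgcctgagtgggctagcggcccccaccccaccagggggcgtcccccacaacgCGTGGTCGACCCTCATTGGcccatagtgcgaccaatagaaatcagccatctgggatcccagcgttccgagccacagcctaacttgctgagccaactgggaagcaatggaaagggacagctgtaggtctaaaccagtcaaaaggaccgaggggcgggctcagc

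Canx: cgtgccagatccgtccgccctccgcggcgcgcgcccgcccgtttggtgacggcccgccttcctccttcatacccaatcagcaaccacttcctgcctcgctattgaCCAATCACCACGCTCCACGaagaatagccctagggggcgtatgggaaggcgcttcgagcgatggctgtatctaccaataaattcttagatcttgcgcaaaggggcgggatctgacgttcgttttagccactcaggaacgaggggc

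Erap1, the trimming aminopeptidase, had 2 tested probe sets, which gave different results. 1416942_at read 8.81 and 8.48 in WT CD8α-, 9.34 and 9.66 in WT CD8α+, 8.92 and 8.96 in RAG2-/- CD8α- and 9.38 and 9.84 in RAG2-/- CD8α+ cells. It lay higher in CD8α+ cells without overlap in both genotypes, by 0.86 (adjusted p = 0.0670) and 0.67 (adjusted p = 0.108), and was not called. 1439068_at read 8.51 and 8.28, 8.76 and 8.06, 6.61 and 7.49, and 7.48 and 7.49 in the same order. Its value in replicate 2 of both RAG2-/- groups, 7.49, was identical to every digit given. This probe set fell by 1.34 (SE 0.35, adjusted p = 0.0269) in RAG2-/- CD8α- cells, and the difference of -0.93 in CD8α+ cells (adjusted p = 0.0842) was not called, whereas 1416942_at gave 0.29 (adjusted p = 0.372) and 0.11 (adjusted p = 0.749).

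**Figure D3:**
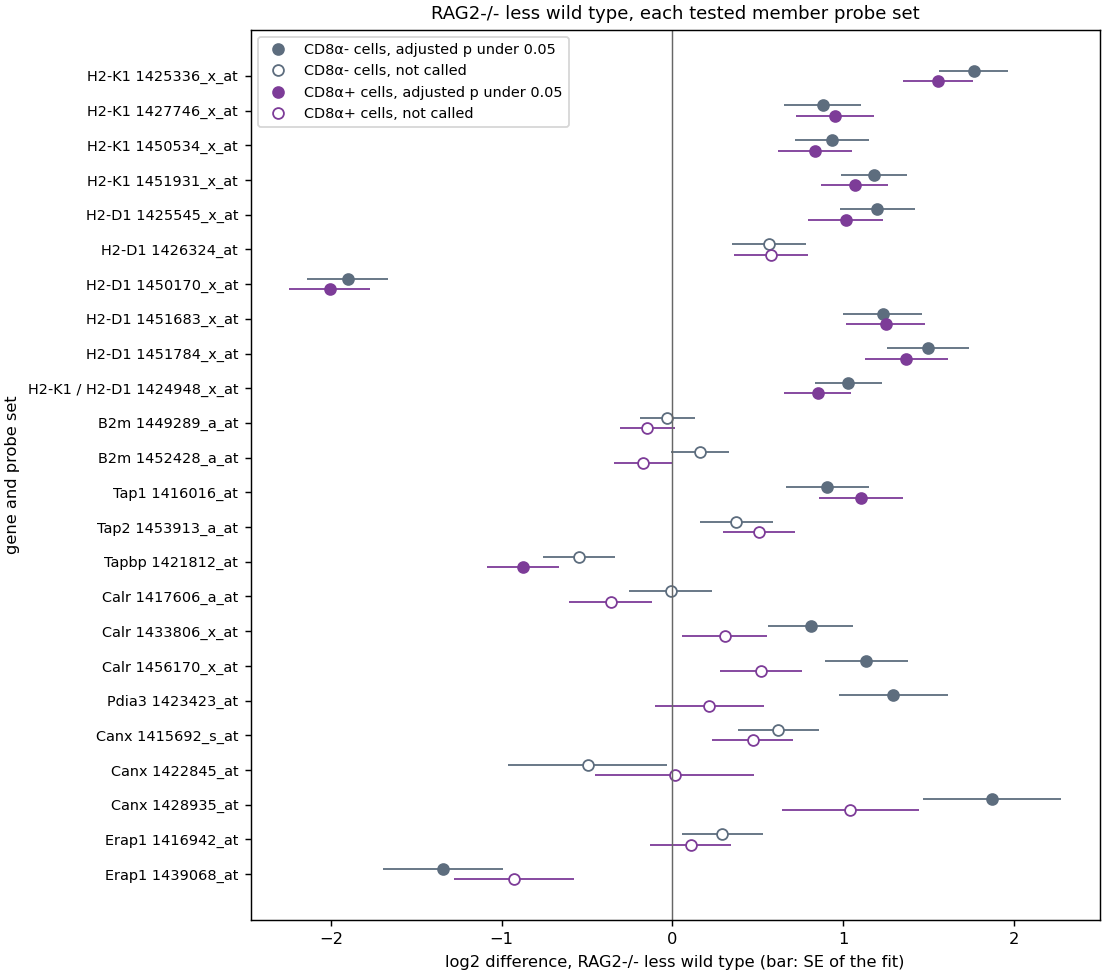
RAG2-/- less WT log2 difference of each tested probe set, with the one annotated to both heavy chains, in CD8α- and CD8α+ cells. Bars are the SE of the fit. Filled points were called at an adjusted p under 0.05. The H2-K1 probe sets lie at 0.84 to 1.77 in both subsets, H2-D1 1450170_x_at at -1.90 and -2.01, B2m between -0.17 and 0.16, and Tapbp below 0.

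Non-overlap between groups of 2 arrays is common and was read against its background. In WT cells 11 member probe sets were higher and 2 lower in CD8α+ cells without overlap, beside 31.3% and 26.6% of all probe sets tested. In RAG2-/- cells it was 6 and 8, beside 27.7% and 27.2%. Between the genotypes 16 were higher and 4 lower in CD8α- cells (background 38.7% and 33.0%), and 14 and 6 in CD8α+ cells (35.1% and 36.1%).

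Whether the subset difference itself changed with genotype was tested as an interaction. Limma called none of the 23 members, and none had an unadjusted p under 0.05. Over all probe sets 5 were called (0.0295%). The member with the largest interaction was Pdia3, at -1.08 (95% interval -2.16 to 0.01, adjusted p = 0.757). For Tap2 the interaction was 0.13 (-0.59 to 0.85) and for Tap1 0.20 (-0.63 to 1.03), intervals that leave room for a change of either sign.

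The calls depended on single arrays, of which each group had only 2. In WT cells the count of 3 called members became 0 without CD8α- replicate 1 or CD8α+ replicate 2 and 1 without either of the others, and the Tap2 difference was 1.04 to 1.51 over all alternatives. In RAG2-/- cells Tap2 was called in 18 of 19 alternatives and lost without the 2 arrays with neutrophil transcripts (1.33, adjusted p = 0.0784), while Tap1 was called in 11 of 19. The RAG2-/- count became 1 without either WT CD8α- array or either RAG2-/- CD8α+ array and 3 without RAG2-/- CD8α- replicate 2. Between the genotypes the 14 calls in CD8α- cells became 7 and 6 without WT CD8α- replicate 1 or 2, with the Erap1, Tap1, Pdia3 and both Calr calls lost without either. The 10 calls in CD8α+ cells became 2 without WT CD8α+ replicate 1 and 5 without either RAG2-/- CD8α+ array.

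Partner genes of the pathway were counted from lists, with 1 probe set a gene. Over all 8763 genes counted this way, 14.7% were called between the WT subsets (7.92% higher, 6.78% lower) and 18.0% between the RAG2-/- subsets (8.95% and 9.06%). Between the genotypes it was 37.2% in CD8α- cells (21.5% higher, 15.7% lower in RAG2-/-) and 33.8% in CD8α+ cells (19.1% and 14.7%). Of 8 tested genes that supply peptides, 2 were called between the subsets in each genotype, both higher in CD8α+ cells. Lap3, a cytosolic leucine aminopeptidase, was higher by 3.24 (SE 0.31, adjusted p = 0.00135) in WT and by 1.39 (SE 0.31, adjusted p = 0.0283) in RAG2-/- cells. Psmb9, an interferon-inducible catalytic subunit of the immunoproteasome and the neighbour of Tap1, was higher by 1.03 (adjusted p = 0.0124) and 1.39 (adjusted p = 0.00377). Between the genotypes 4 of the 8 were called higher in RAG2-/- cells of each subset and none lower. They were Lap3 (2.23), Psme1 (1.13), Psmb8 (1.11) and Psmb10 (0.60) in CD8α- cells, and Psme1 (1.63), Psmb8 (1.14), Psmb9 (0.71) and Psmb10 (0.71) in CD8α+ cells. Psmb8 and Psmb10 encode the other inducible proteasome subunits and Psme1 a subunit of the PA28 activator. The list's median difference was 0.48 and 0.56.

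Of 16 tested genes of folding and quality control in the endoplasmic reticulum, P4hb (1.16) and the glucosidase gene Mogs (0.97) were called higher in WT CD8α+ cells, and none was called between the RAG2-/- subsets. Between the genotypes 5 of 16 were called higher in CD8α- and 3 of 16 in CD8α+ cells, and none was called lower. Over all genes 21.5% and 19.1% were called higher, and 37.2% and 33.8% in either direction. Hsp90b1, the chaperone GRP94, lay just outside the threshold and is named for that after its values were seen. Its differences were -0.86 (adjusted p = 0.0549) and -0.89 (adjusted p = 0.0513), and it was called lower in 12 and 11 of 19 alternatives. The disulfide isomerases Pdia6 (1.94 and 1.33) and P4hb (1.60 and 1.08) and the chaperone Erp29 (1.50 and 1.23) were called in both subsets, Mogs (0.63) in CD8α- cells.

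**Figure D4:**
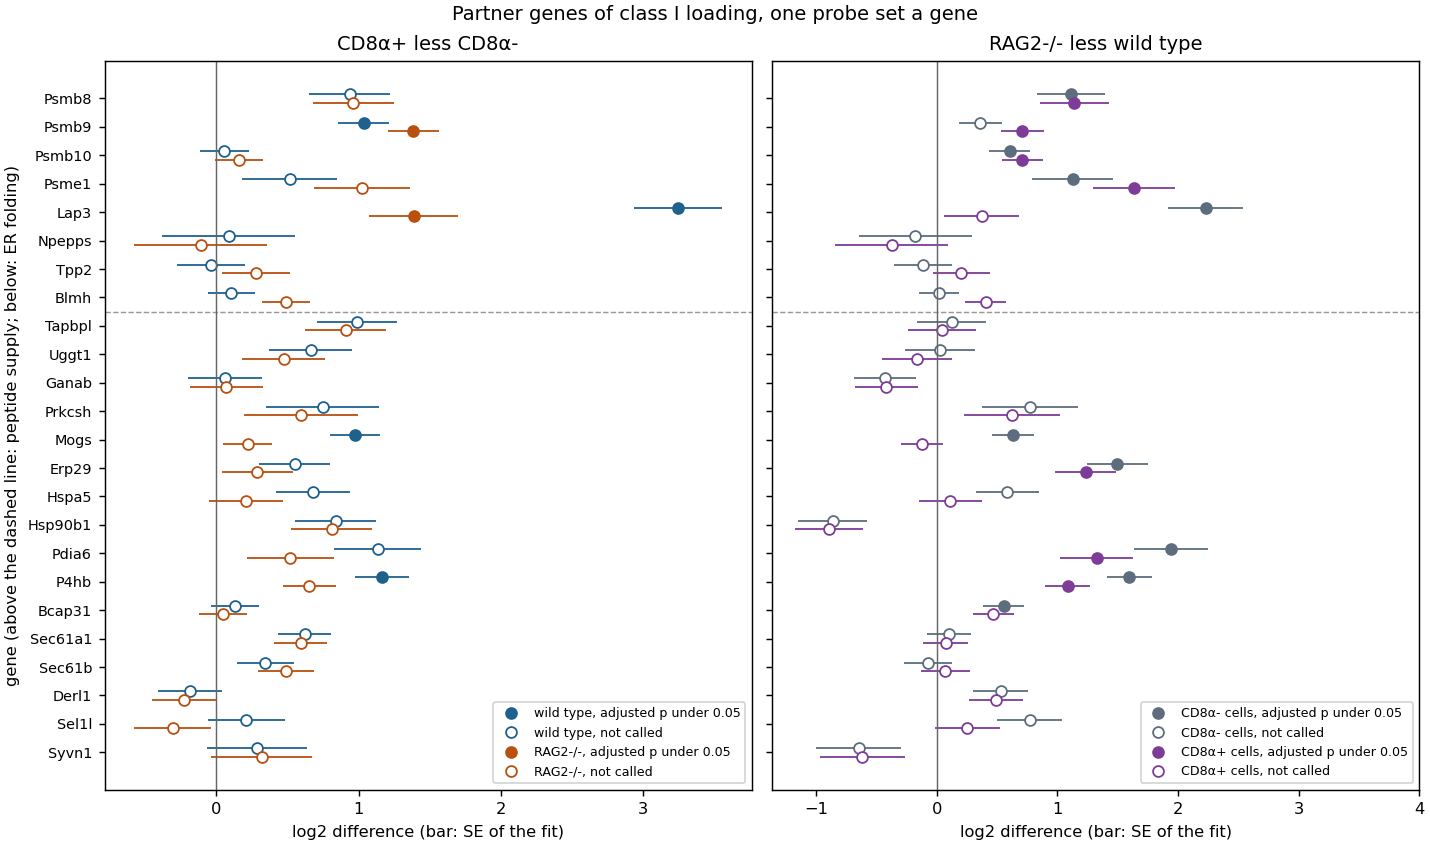
Log2 differences of the tested genes that supply peptides (above the dashed line) and of folding and quality control (below it), 1 probe set a gene, with the SE of the fit. The left panel gives CD8α+ less CD8α- and the right panel RAG2-/- less WT, and filled points were called. Lap3 and Psmb9 are called between the subsets in both genotypes, and the genes called between the genotypes all lie above 0, with Hsp90b1, called lower in 12 and 11 of 19 alternatives, just outside the threshold.

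Among class I related genes 17 were listed, 8 had a probe set with that symbol alone and 3 were tested. Cd1d1, which presents lipids, was higher in CD8α+ cells by 1.09 in WT (adjusted p = 0.00774) and 1.02 in RAG2-/- cells (adjusted p = 0.00893), and lower in RAG2-/- cells of both subsets, at -1.27 and -1.34 (adjusted p = 0.00296 and 0.00270). H2-M3, which presents formylated peptides, was higher in RAG2-/- cells by 0.83 and 0.94, as most H2-K1 and H2-D1 probe sets were, and H2-T24 was lower in RAG2-/- CD8α+ cells (-1.08, and -0.69 and not called when 16 was added to the linear values before taking log2).

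Of 12 tested genes for transcription factors of class I genes, 3 were called between the WT subsets and 4 between the RAG2-/- subsets. The shares over all genes were 14.7% and 18.0%. Irf8, an interferon regulatory factor needed for CD8α+ dendritic cells, was higher in the CD8α+ subset by 3.79 in WT and 2.58 in RAG2-/- cells (1.70 without RAG2-/- CD8α- replicate 1, where it was not called). The subunits of the RFX complex, which binds MHC promoters, moved in different directions between the subsets. Rfxap was higher (1.17 and 1.30), Rfx5 lower (-0.96 and -0.94), and Rfxank lower in RAG2-/- cells (-1.62). The Rfxap calls held in 16 and 18 of 19 alternatives, the Rfx5 calls in 7 of 19 in each genotype and the Rfxank call in 9 of 18. Nlrc5, the class I transactivator, named outside the rule with its values known, was not called (1.11, adjusted p = 0.0615, and 1.0, adjusted p = 0.0693). Between the genotypes 4 of 12 were called higher and 1 lower in CD8α- cells, and 3 and 1 in CD8α+ cells. In either direction 37.2% and 33.8% of all genes were called, so the called share of this list was near the background. Rfx5 was higher in RAG2-/- cells by 1.94 (adjusted p = 0.00233) and 1.96 (adjusted p = 0.00238). Rela, the NF-kB subunit, was higher by 0.99 and 0.87, Irf1 by 1.62 in CD8α- cells, and Nfyc, a CCAAT-binding subunit, was lower (-0.66 and -0.88).

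Of 10 tested genes linked to cross-presentation, 3 were called higher and 2 lower in WT CD8α+ cells, and 2 and 2 in RAG2-/- CD8α+ cells. In either direction the shares over all genes were 14.7% and 18.0%. The RNA sensor Tlr3 (4.36 and 3.46) and the endocytic receptor gene Ly75 (1.94 and 2.95) were higher in the CD8α+ subset, and Cybb (-2.39 and -3.33) and Rac2 (-1.24 and -0.93), both of the phagosomal NADPH oxidase, were lower. Between the genotypes 3 of 10 were called higher in each subset and none lower, beside 21.5% and 19.1% of all genes called higher. In either direction it was 37.2% and 33.8% of all genes. Beside the macrophage markers given above, the mannose receptor gene Mrc1 was higher in RAG2-/- cells by 3.99 and 3.33 and Rac2 by 1.08 and 1.39, with Tlr3 (1.33) also called in CD8α- and Unc93b1 (1.63) in CD8α+ cells. Without RAG2-/- CD8α- replicate 2 the Tlr3 difference was 0.76 and was not called. Of the partner genes with values here, Lap3, Tlr3 and Cybb in WT, Cybb in RAG2-/- cells, Lap3, Cd1d1, Rfx5, Pdia6, P4hb, Erp29, Mrc1 and Rac2 between the genotypes in CD8α- cells, and Cd1d1, Rfx5, Nfyc, P4hb, Mrc1, Rac2 and Unc93b1 in CD8α+ cells were called in all 19 alternatives, and each other call was lost in at least 1.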

How the data were processed

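Expression was measured on 8 Affymetrix mouse arrays, 2 for each genotype and CD8α subset. The deposited values are log2 expression values that the authors made with GCRMA, which corrects background and summarises the probes of a set. Per the submitters' processing notes GCRMA and affy were used for WT arrays and GCRMA for RAG2-/- arrays. No source here gives their versions. Of 45101 probe sets, 64 array controls were left out; the platform table gave 34945 of the others 1 symbol, 932 several and 9160 none.

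Probe sets at or above log2 5 on at least 2 arrays (16939) were tested with limma 3.58.1 in R 4.3.3, with 1 model over all 4 groups, no covariate, 5 comparisons and Benjamini-Hochberg adjustment over all 16939. The number of arrays limits the precision: residual degrees of freedom were 4 per probe set. Replicate arrays correlated at 0.961 to 0.984. The scripts were tested on simulated data. All member probe sets are named; other lists are counted with the highest-mean probe set of each gene, naming up to 4 called genes by size of change per comparison. Members and lists were chosen with earlier results of these data known. The alternatives changed normalization, filter, offset, variance model, samples in the fit, probe sets per gene, replicate numbering and arrays left out. Gene positions and promoter sequences are RefSeq's on GRCm38.p6.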

Additional observations from a re-analysis of the deposited data

How the results depend on the processing

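Over 19 alternatives no called difference changed sign. Of 424 recomputed member values in each group comparison, 393 (WT subsets), 411 (RAG2-/- subsets), 375 (genotype, CD8α-) and 389 (genotype, CD8α+) kept their side of the threshold, and 20, 11, 3 and 5 values that were not called changed sign. The called members numbered 3, 2, 14 and 10. Without a filter on low values 32 member probe sets were tested, and 1, 1, 22 and 17 were called. Of the 22 and 17, 8 and 7 were lower in RAG2-/- cells. Over all 45037 probe sets 28294 and 28132 were then called between the genotypes. With the filter at log2 7 the WT subset count was 5 of 23 members, beside 2034 of 12969 probe sets. With limma-trend and robust variances that count was 5. One probe set a gene gave 4 and 4 genes between the genotypes, by construction a count over 10 genes. With the compared groups alone the RAG2-/- subset count was 1 and the CD8α- genotype count 8. Leaving out 1 array at a time gave 0 to 3, 1 to 3, 6 to 14 and 2 to 11, and leaving out both arrays with neutrophil transcripts, an alternative chosen after seeing the data, gave 5 in the CD8α+ genotype comparison. The interaction called 0 members in every alternative run. The cause of these moves was not tested.

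Over all probe sets tested the 5 counts were 2154, 2737, 6045, 5749 and 5. Without the filter they were 1199, 1487, 28294, 28132 and 41, and the share called higher between genotypes moved from 53.4% and 49.2% to 34.5% and 32.9%. One probe set a gene gave 1499, 1909, 3548, 3230 and 21. The RAG2-/- subset count was 720 with the compared groups alone. Without both arrays with neutrophil transcripts it was 1676, and the interaction count ran from 0 to 41 over the alternatives. Leaving out 1 array gave 861 to 2139, 1494 to 2679, 2564 to 5867, 2649 to 6046 and 0 to 4. Centring each array on its median moved the median CD8α- genotype difference over all probe sets from 0.08 to -0.02.

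Whether replicate numbers pair the arrays was not settled. The replicate differences of any 2 groups correlated at -0.26 (the 2 RAG2-/- groups) to 0.15, which does not show which mice the arrays came from. With the replicate number as a block the member counts were 3, 2, 13, 10 and 0 and the counts over all probe sets 1888, 2317, 5513, 5099 and 1. With the numbers exchanged in the RAG2-/- CD8α+ group, a crossed pairing chosen after seeing the data, they were 3, 2, 13, 10 and 0.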
